A study of Drosophila melanogaster with 4 samples.

Results

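The called regions described here lay on sequences that release 5 of the Drosophila melanogaster genome keeps apart from those of the chromosome arms. Most of that sequence was unplaced, and some was heterochromatin assigned to an arm. The regions were chosen by the name of the sequence alone, as every called region on Uextra, U, 2RHet, 3LHet or 3RHet. There were 310 of them among 4067 called regions in all (7.62%). Of these, 291 lay on Uextra, 15 on U, 2 on 3RHet, 1 on 2RHet and 1 on 3LHet. The comparison was with the other 3757 regions, on the large arms X, 2L, 2R, 3L and 3R and on chromosome 4, together called the arms below. The 310, with those on the Het sequences, are said below to lie off the arms.

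The study profiled chromatin of white prepupae, animals that have just formed the puparium and begun metamorphosis, by chromatin immunoprecipitation followed by sequencing (ChIP-seq). It held 2 immunoprecipitated (ChIP) libraries, made with the rabbit polyclonal antibody KW3-CG8478-D1 against the product of CG8478, and 2 input libraries, which show the DNA before the antibody was used. All 4 libraries came from the strain Y cn bw sp, and the labels list for each of them the alleles y[1] with oc[R3.2], Gr22b[1] with Gr22d[1], cn[1] with CG33964[R4.2], bw[1] with sp[1], and LysC[1], lab[R4.2], MstProx[1] and GstD5[1] together with Rh6[1]. The labels give neither the sex of the animals nor whether replicates were separate collections. The files hold 1 list of called regions and no value per library, so the read depth is unknown, ChIP could not be set against input, and no spread between replicates could be computed.

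As background, the strain carrying y, cn, bw and sp is the one whose genome was sequenced as the fly reference. Fly heterochromatin, the compact and gene-poor chromatin around the centromeres, is rich in satellite DNA, transposons and tandem gene families, and assembles poorly. In release 5 the sequences with Het in their names are scaffolds assigned to the heterochromatin of an arm, U joins scaffolds that could not be assigned to an arm, and Uextra joins many small unplaced scaffolds, with spacers between them. Neighbours on U and Uextra are therefore not always neighbours in the genome. A read that matches several copies of a repeat cannot be placed with certainty, and how such reads were treated is not given in the sources used here. The immunogen stated for the antibody is a stretch of 111 residues in which the spacing of cysteines and histidines typical of a C2H2 zinc finger, a common DNA-binding fold, occurred once, at residues 70 to 91 counted from its first residue.

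Of the 310 regions, 165 scored under 20, 96 scored from 20 to 100 and 49 scored 100 or more. Another called region lay within 1 kb of 66 of the faintest (40%), 20 of the middle group (20.8%) and 1 of the strongest (2.04%). On the arms the shares in the same classes were 44.0%, 32.1% and 34.6%, so the strongest class differed most. The strongest of the 310 were also narrow for their scores. Each region carried a score, the authors' own deposited value from the peak caller, whose scale is not stated. It is used here only to describe and rank regions within this list. Regions of 1 list are not replicates, so no test was made between sets of regions. Intervals are 95% and cover counting error only: Wilson intervals for shares, exact Poisson intervals for densities, and exact order-statistic intervals for medians. They count every region as independent, although calls on repeat copies may not be.

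Taken over all scores, the 310 regions had a median score of 18.28 (interval 15.86 to 22.13), against 19.93 (19.12 to 20.58) on the arms, and these intervals overlapped. Their scores ran from 6.8 to 230.11, whereas scores on the arms ran from 5.69 to 490.21. Their widths had a median of 242 bp (223 to 282 bp), against 343 bp (331 to 358 bp) on the arms, and here the intervals did not overlap. The narrowest width of the list, 119 bp, was found in 12 of the 310 (3.87%, 2.23 to 6.64%) and in 90 regions on the arms (2.40%, 1.95 to 2.94%). Together the 310 regions covered 102 kb, against 1794 kb on the arms. Wider regions had higher scores in both sets, with a Spearman's rho of 0.76 across the 310 regions and 0.82 across the 3757 regions of the arms, given as a description because all come from the same libraries.

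**Figure D1:**
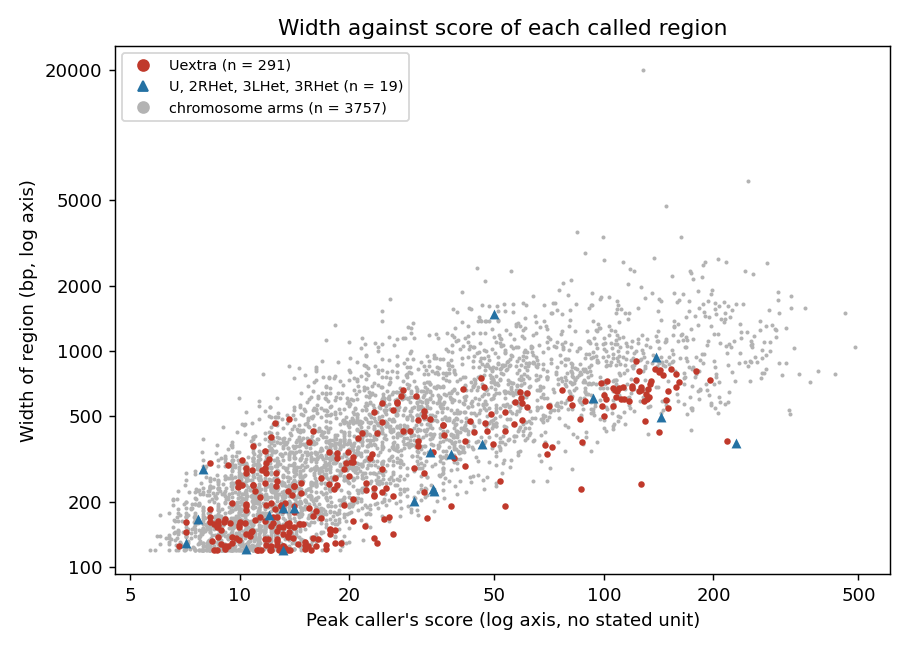
Width in bp against the peak caller's score of every called region, both on log axes, with 291 regions on Uextra (red circles), 19 on U and the Het sequences (blue triangles) and 3757 on the chromosome arms (grey). The red points gather at the lower left, and in a compact group scoring 100 to 150, which lies along the lower side of the grey cloud.

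Calls per length were sparse. Between its first region at 403078 and its last ending at 28628228, Uextra held 10.3 regions per Mb (9.16 to 11.6), and U held 2.15 per Mb (1.20 to 3.54) between 2605885 and 9586516. The arms held 31.9 per Mb (30.9 to 33.0) of the span between their first and last regions. Spacers between scaffolds add to the span of Uextra and U, by an amount that was not analysed here. All coordinates are those of FlyBase release 5, counted from 1.

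Scores of 100 to 150 were more frequent off the arms than on them. Scores of 100 or more were carried by 49 of the 310 regions (15.8%, 12.2 to 20.3%), against 355 of 3757 on the arms (9.45%, 8.55 to 10.4%). Off the arms, most of these were in the class from 100 to 150. On the arms more of them, 188 regions, scored 150 or above. The class from 100 to 150 took in 40 of the 310 regions (12.9%, 9.62 to 17.1%) and 167 regions of the arms (4.45%, 3.83 to 5.15%). The class just below, 75 to 100, held 10 regions off the arms (3.23%, 1.76 to 5.84%) and 161 on them (4.29%, 3.68 to 4.98%). This class is narrower than that from 100 to 150, which accounts for part of the step between them off the arms. Scores of 200 or more were carried by 2 of the 310 regions (0.645%, 0.177 to 2.32%) and by 99 regions on the arms (2.64%, 2.17 to 3.20%), with overlapping intervals. At the low end, scores of 10 to 15 took in 93 of the 310 regions (30%, 25.2 to 35.3%) and 869 regions on the arms (23.1%, 21.8 to 24.5%).

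**Figure D2:**
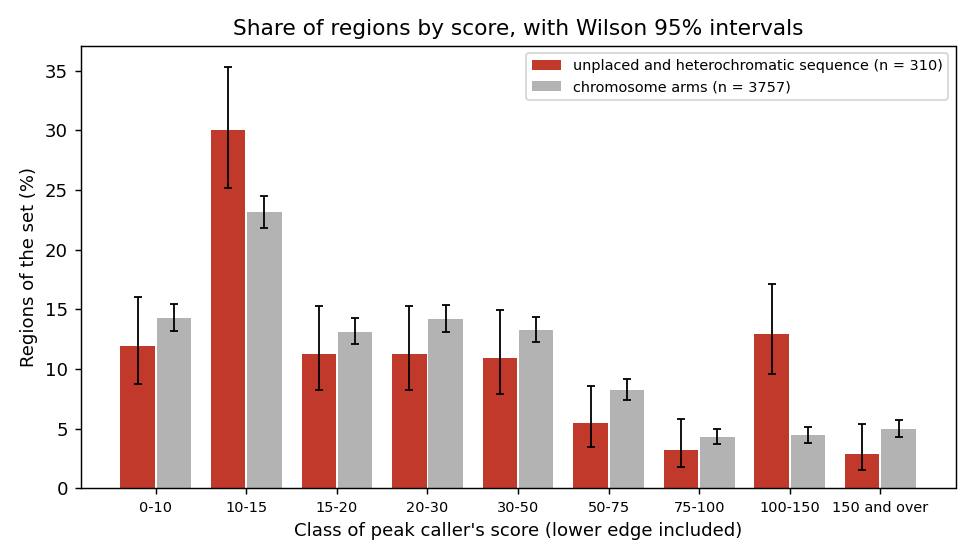
Share of regions in each class of score, in % of the set, for the 310 regions on unplaced and heterochromatic sequence (red) and the 3757 on the arms (grey), with Wilson 95% intervals as error bars. The 100 to 150 class holds 12.9% of the red set and 4.45% of the grey, and its red bar is higher than those on both sides. Classes differ in width, so bars compare the sets within a class rather than neighbouring classes.

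The strong calls off the arms were narrow and alike in width. Among regions scoring 100 to 200, the 47 off the arms measured 666 bp at the median (622 to 685 bp), with the middle 50% between 599 and 730 bp. The 256 regions on the arms in the same range of scores had a median of 920.5 bp (883 to 970 bp), with the middle 50% between 699.75 and 1185.5 bp. Their median scores were close, 129.31 off the arms and 131.825 on them. The distance between the quartiles of width was 131 bp off the arms and 485.75 bp on them. It was 201 bp for 12 regions of a dense stretch of proximal 2L, described below. A small spread was thus not particular to regions off the arms. No Uextra region was wider than 899 bp, a width exceeded by 135 of the 256 arm regions in this range (52.7%) and by 1 of the 47, on U.

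Medians of width were also lower off the arms in weaker classes. In the class from 20 to 30, the 35 regions off the arms measured 304 bp at the median (221 to 414 bp), against 411 bp (391 to 433 bp) on the arms, with overlapping intervals. From 30 to 50, the medians were 380 bp (331 to 462 bp, 34 regions) off the arms and 541 bp (509 to 566 bp) on them. From 50 to 75 they were 518 bp (364 to 582 bp, 17 regions) and 691 bp (646 to 740 bp). From 75 to 100 they were 572 bp (378 to 658 bp, 10 regions) and 788 bp (735 to 838 bp). Fainter calls went the same way. From 15 to 20 the medians were 172 bp (135 to 242 bp, 35 regions) and 301.5 bp (285 to 315 bp). From 10 to 15 they were 169 bp (157 to 190 bp, 93 regions) and 206 bp (198 to 212 bp). In the lowest class, under 10, the medians were 153 bp (135 to 161 bp, 37 regions) off the arms and 161.5 bp (155 to 166 bp) on them, close to the narrowest width called.

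**Figure D3:**
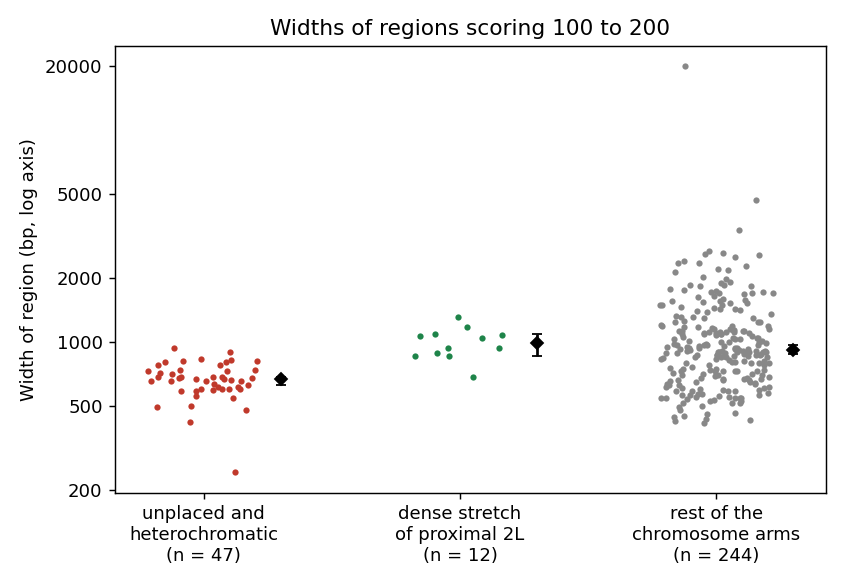
Widths in bp, on a log axis, of the regions scoring 100 to 200, with 47 on unplaced and heterochromatic sequence (red), 12 in a dense stretch of proximal 2L (green) and 244 on the rest of the arms (grey). Each dot is 1 region, spread sideways at random, and each black diamond is the median with its exact 95% interval. The red dots lie below 1000 bp with a median of 666 bp, and the green ones have a median of 986.5 bp.

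The 20 regions with the highest scores comprised 17 on Uextra, 2 on U and 1 on 3LHet. Their scores ran from 134.12 to 230.11, which placed them between rank 62 and rank 243 of the whole list, so that none of the 61 strongest calls lay off the arms. Not 1 of the 20 had another called region within 1 kb (0 of 20).

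The strongest, at U 2605885 to 2606259, scored 230.11, and the next, at Uextra 22939391 to 22939770, scored 217.56. These were also the narrowest of the 20, at 375 bp and 380 bp. The third, at Uextra 10739481 to 10740213, scored 195.72 over 733 bp, and the fourth, at Uextra 12315778 to 12316587, scored 178.68 over 810 bp.

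A group of 5 followed with scores of 150 to 161. They lay on Uextra at 8216867 to 8217579 (score 160.66), 14542454 to 14543231 (158.3), 1533935 to 1534613 (157.65), 10146716 to 10147540 (153.22) and 15274436 to 15275088 (150.5). They came from places far apart on Uextra and were between 653 and 825 bp wide.

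The remaining 11 scored from 134.12 to 149.75. On Uextra they were at 21861497 to 21862041 (149.75), 1104687 to 1105277 (147.77), 10999380 to 11000153 (145.35), 12222580 to 12223392 (142.77), 11474048 to 11474847 (141.94), 14038169 to 14038588 (141.84), 7499336 to 7500162 (138.33), 12094839 to 12095563 (134.69) and 16613074 to 16613777 (134.12). The other two were at 3LHet 207003 to 207493, with a score of 143.19 over 491 bp, and at U 6731912 to 6732851, with 139.46 over 940 bp. The 5 widest regions off the arms were U 7871006 to 7872491 at 1486 bp, that second U region at 940 bp, and Uextra 8060293 to 8061191 at 899 bp, 7499336 to 7500162 at 827 bp and 10146716 to 10147540 at 825 bp. The widest of all scored 50.03, below the scores of the other 4, which ran from 122.26 to 153.22.

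Most strong calls on Uextra had no other called region near them. Of its 46 regions scoring 100 or more, 42 had no other region with a midpoint within 5 kb. Being alone was common there, since 185 of all 291 Uextra regions had none across a gap under 5 kb. Consecutive strong midpoints were a median of 324 kb apart, a distance that also reflects how few strong calls there were. Neither measure was computed for strong calls across the arms. On Uextra, 2 steps were shorter than 20 kb. Those were 4.91 kb, between the regions at 14542454 (158.3) and 14547416 to 14548094 (112.92), and 6.96 kb, between 13391608 to 13392205 (113.32) and 13398744 to 13398985 (126.18). A further 2 strong regions had weaker calls near them. The region at 7736380 to 7737181 (124.56) had one scoring 26.96 at 2827 bp to its left, and that at 15460006 to 15460614 (133.15) had calls scoring 12.84 and 13.36 at 1300 and 1574 bp to its right.

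A dense stretch of proximal 2L, from 21417054 to 21541594, was set beside them. It was picked as the longest chains of regions on 2L with gaps under 5 kb and what lay between them. It also mixes strong and weak calls. The base of 2L carries the tandemly repeated histone genes, and which called regions lie on them was not analysed here. Of its 83 regions, 12 scored 100 or more (14.5%, 8.47 to 23.6%), a share whose interval includes the 15.8% found off the arms. Its strongest call scored 155.97, and it had none at 200 or above (0 of 83, interval up to 4.42%). Its calls scoring 100 to 200 were wider, at a median of 986.5 bp (859 to 1090 bp), than the 666 bp found off the arms. Of those 12, 9 had another region within 1 kb, against 1 of the 47 off the arms. Because the stretch was picked for closely spaced regions, its close neighbours were largely set by that choice. Midpoints of its 23 regions above the upper quartile of all scores were a median of 5.04 kb apart, with steps from 4.65 to 14.3 kb. That quartile, a score of 43.93, is lower than the limit of 100 used for the steps on Uextra, so those distances cannot be compared directly.

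Close neighbours, counted within 1 kb, were less frequent off the arms. Another region lay within 1 kb on either side of 87 of the 310 regions (28.1%, 23.4 to 33.3%), against 1441 of the 3757 on the arms (38.4%, 36.8 to 39.9%). The next region to the right began within 1 kb for 45 of the 310 (14.5%, 11.0 to 18.9%), against 866 on the arms (23.1%, 21.7 to 24.4%). All 45 pairs of neighbouring regions less than 1 kb apart lay on Uextra. They made up 39 groups of 2 regions and 3 groups of 3, with 87 regions in all, and the other 204 Uextra regions had none within 1 kb. The 87 had a median score of 14.14 (13.54 to 15.88) and were a median of 159 bp wide (149 to 172 bp). The 204 had a median score of 23.625 (19.36 to 29.43) and were a median of 318.5 bp wide (272 to 396 bp). Scores of 100 or more occurred in 1 of the 87 (1.15%, 0.203 to 6.23%) and in 45 of the 204 (22.1%, 16.9 to 28.2%). On the arms, regions with a close neighbour also had the lower median score, 16.2 (15.33 to 17.28) against 22.135 (21.08 to 23.07) for those with none, and the lower median of width, 320 bp (299 to 340 bp) against 361 bp (344 to 373 bp). Scores of 100 or more there occurred in 123 of the 1441 regions with a close neighbour (8.54%, 7.20 to 10.1%) and in 232 of the 2316 with none (10.0%, 8.86 to 11.3%), with overlapping intervals.

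The share of regions with another within 1 kb was also read by class of score. Whether its course differs between the sets was not tested. In the most populous class, from 10 to 15, it was 40 of 93 (43.0%, 33.4 to 53.2%) off the arms and 400 of 869 (46.0%, 42.7 to 49.4%) on them, with overlapping intervals. The share off the arms was the higher in 1 class, from 15 to 20, at 17 of 35 (48.6%, 33.0 to 64.4%) against 166 of 494 (33.6%, 29.6 to 37.9%), and there too the intervals overlapped. It was the lower at 20 to 30 (25.7% against 34.5%), at 30 to 50 (20.6% against 28.7%), at 50 to 75 (17.6% against 35.3%) and at 75 to 100 (10% against 28.6%), each with overlapping intervals. In the class from 100 to 150 it was 1 of 40 (2.5%, 0.443 to 12.9%) off the arms and 60 of 167 (35.9%, 29.0 to 43.4%) on them. The faintest calls, under 10, went the same way as the strong ones, with 9 of 37 (24.3%, 13.4 to 40.1%) off the arms and 270 of 536 (50.4%, 46.2 to 54.6%) on them. The lengths of scaffolds were not analysed here.

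**Figure D4:**
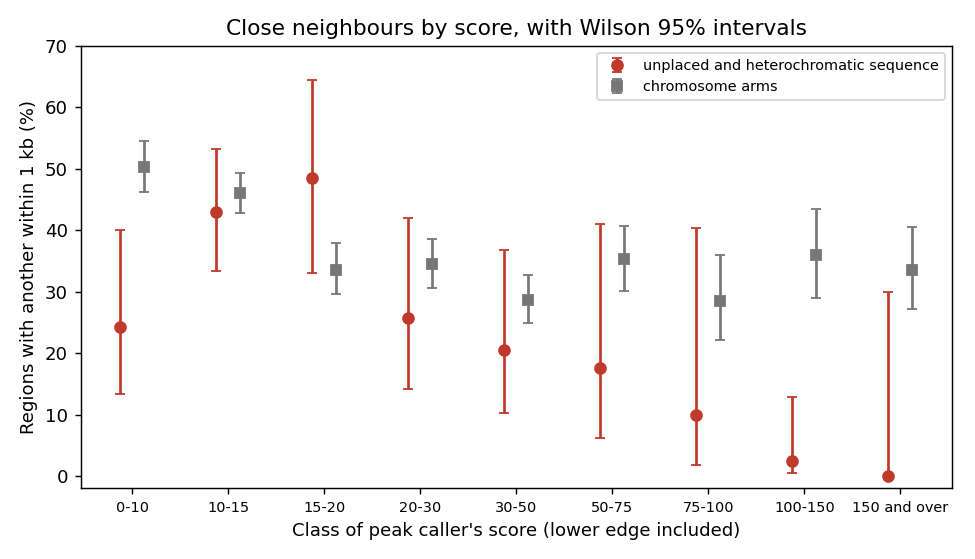
Share of regions, in %, that had another called region within 1 kb, by class of score, for unplaced and heterochromatic sequence (red circles) and the arms (grey squares), with Wilson 95% intervals. The grey squares stay between 28.6% and 50.4% in every class, whereas the red circles fall to 2.5% at 100 to 150 and 0% (0 of 9, interval up to 29.9%) at 150 and over.

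Among pairs less than 1 kb apart, those on Uextra were more closely spaced and more alike in score than those on the arms. The gap between the 2 regions had a median of 131 bp (102 to 143 bp), against 218 bp (191 to 249 bp) for the 866 pairs on the arms. It was under 200 bp in 35 of the 45 pairs (77.8%, 63.7 to 87.5%) and in 412 pairs on the arms (47.6%, 44.3 to 50.9%). From 400 to 900 bp there were no pairs on Uextra (0 of 45). The higher score of a pair was a median of 1.42 times the lower (1.25 to 1.90) on Uextra, against 2.09 times (1.96 to 2.22) on the arms. Both regions scored under 20 in 25 of the 45 pairs (55.6%, 41.2 to 69.1%) and in 299 pairs on the arms (34.5%, 31.4 to 37.8%). In the dense stretch of proximal 2L, both did so in 25 of 43 pairs (58.1%, 43.3 to 71.6%). The ratio of scores there was 1.68 (1.43 to 6.93), and both intervals overlapped those of Uextra. Pairs of weak calls were thus not particular to Uextra. From end to end, a pair on Uextra spanned a median of 490 bp (444 to 579 bp), against 1102.5 bp (1047 to 1164 bp) on the arms.

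**Figure D5:**
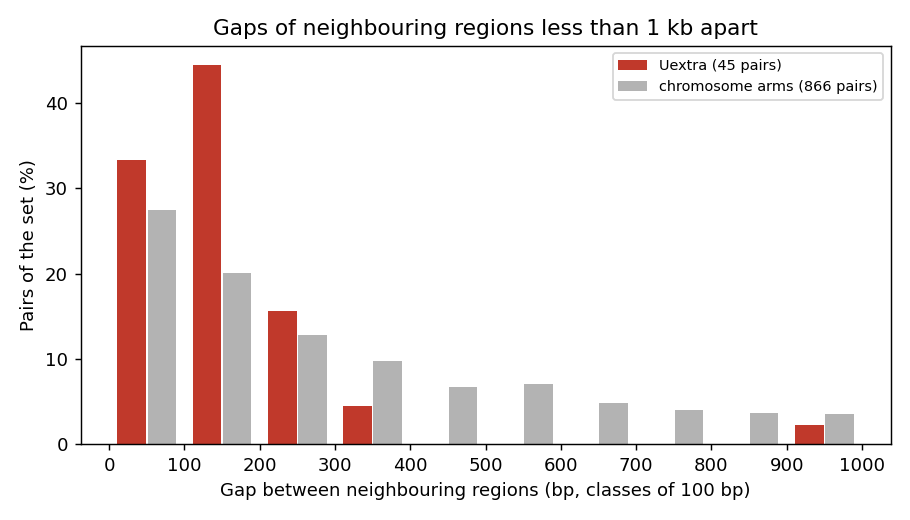
Gaps in bp between neighbouring regions less than 1 kb apart, in classes of 100 bp and in % of the pairs of each set, for 45 pairs on Uextra (red) and 866 on the arms (grey). The red bars end at 400 bp except for 1 pair at 919 bp. The grey bars fall from 27.5% at 0 to 100 bp to 12.8% at 200 to 300 bp, and continue at lower shares up to 1000 bp.

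Larger groups were few. With gaps under 5 kb, no chain off the arms reached 5 regions. Uextra held 1 group of 4 and 8 groups of 3 at that distance, and U held 1 group of 2. The group of 4 lay between 12498510 and 12504290, with scores of 20.49, 30.79, 9.28 and 86.13 from left to right. A group of 3 between 10904731 and 10905966 had scores of 70.51, 15.44 and 11.75, so that its highest score stood at the left end. In another, between 11315379 and 11316803, the scores were 9.97, 14.11 and 40.98, with the highest at the right end. The group between 15216777 and 15220474 had no call above 13.17.

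Along Uextra the calls were uneven in number and kind. In sections of 5 Mb, from the first to the sixth, there were 27, 52, 96, 78, 24 and 14 regions. The third section, from 10 to 15 Mb, held most regions and most strong ones, with 20 of 96 at 100 or more (20.8%, 13.9 to 30%). The shares of strong calls in the other sections ran from 7.14% to 17.3%, and their intervals overlapped that of the third. Close neighbours were most frequent in the fifth section, with 12 of 24 regions (50%, 31.4 to 68.6%), and the fourth, with 33 of 78 (42.3%, 32.0 to 53.4%). In the first section they were 4 of 27 (14.8%, 5.92 to 32.5%), in the second 8 of 52 (15.4%, 8.01 to 27.5%), and in the sixth 2 of 14 (14.3%, 4.01 to 39.9%). The interval of the fifth section overlapped those of the first and the sixth. The median width was 317 bp (209 to 518 bp) in the first section, 186.5 bp (159 to 247 bp) in the fourth and lowest, 169.5 bp (128 to 304 bp), in the fifth, with overlapping intervals.

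The 15 regions on U were spread thinly. Of them, 7 scored under 20, 6 scored 20 to 100 and 2 scored above 100. The strongest, at 230.11, was described above, as were the regions at 6731912 and 7871006. Another at U 5630773 to 5631375 scored 93.08 over 603 bp. Intermediate scores were found at 6904640 to 6905010 (46.37), 9586294 to 9586516 (34.07), 4022730 to 4022958 (33.97) and 5506891 to 5507228 (33.4). Those 4 were between 223 and 371 bp wide.

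The weak calls on U were at 7458195 to 7458381 (14.14), 3391951 to 3392136 (13.17), 6291022 to 6291140 (13.17), 6560161 to 6560334 (12.07), 5437183 to 5437302 (10.41), 6292341 to 6292506 (7.69) and 9538611 to 9538739 (7.13). Widths there ran from 119 to 187 bp. The closest pair on U, at 6291022 and 6292341, was separated by 1200 bp, and both were weak.

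The heterochromatic scaffolds tied to an arm held 4 regions. The one on 3LHet, at 207003 to 207493, was strong at 143.19, as given above. On 3RHet, the region at 1119165 to 1119495 scored 38.15 over 331 bp, and that at 2516946 to 2517228 scored 7.91 over 283 bp. The region on 2RHet, at 1328865 to 1329066, scored 30.14 over 202 bp. With so few regions, nothing can be said of how these scaffolds differ from one another.

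Some regions had the same score, to 2 decimals, and the same width to the base. On Uextra, the regions at 5650977 to 5651430 and 13754306 to 13754759 both scored 36.1 over 454 bp. Uextra 8792197 to 8792408 had the score of 23.37 and the width of 212 bp of a region at 3R 10108436 to 10108647. Uextra 698438 to 698643 had the 20.49 and 206 bp of a region at 4 436185 to 436390. Among regions scoring 20 or more, these 3 matches, of 6 regions, were the only ones in the list. Each took in a Uextra region, and no match lay wholly within the arms, where 1858 regions scored that high (0 of 1858), against 145 off the arms. Below 20, 12 of the 165 regions off the arms shared score and width with at least 1 region on the arms, in 15 matches, and none shared them with another region off the arms (0 of 165). On the arms, 76 regions scoring under 20 shared both with another arm region. Scores alone also recurred at other widths. On Uextra, 23.37 was also carried by the regions at 430368 (214 bp), 19583506 (136 bp) and 25400893 (230 bp). The region at 12498510 (304 bp) also scored 20.49, and 36.1 recurred on the arms at other widths. Equal scores were thus not limited to regions of equal width, and how many matches would arise by coincidence was not computed. Whether any matched regions share sequence was not analysed here.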

How the data were processed

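ChIP-seq was done with 2 ChIP and 2 input libraries, grouped from their titles. Base calling and alignment tools (CASAVA 1.7.0.2, CASAVA 1.7.0.3 and BWA), MACS2 and the build BDGP5 are named in the submitters' processing notes. Per the file headers the build is FlyBase release 5, and MACS is given as the source of every region. The score was deposited by the authors as a value of the peak caller. Its scale, the threshold, the use of input, the pooling of replicates and the placing of reads that match several sites are not given in those sources. That placing can add or remove calls in repeated sequence.

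Width was the deposited end minus the deposited start, and 1 was added to each start for printing, since 2 starts were 0. Close meant a gap under 1 kb, and chains had gaps under 5 kb. Intervals were computed with scipy 1.17.1 in Python 3.11.15 and checked on simulated lists. Named were the 20 highest scores, the 5 widest regions, all regions on U and the Het sequences, and chains of 5 or more. The regions, thresholds and comparisons were chosen with earlier results of these data known. Score classes, sections, the limits of 100 and 200, the 2L stretch and other examples were chosen after values had been seen. No genome of release 5 was used.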

Additional observations from a re-analysis of the deposited data

How the results depend on the processing

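Of 28 alternative settings over 8 values, 16 left the value within its interval and 12 moved it; directions against the arms, where given, use the same setting on both sets. With the top 50% of scores alone, by construction the median score was 53.47 (43.58 on the arms), the median width 491 bp (598 bp), the share in the top 10% of scores 33.3% (19.0%), the share with the next region within 1 kb 0.680% (8.64%), the share at the narrowest width 0%, and the density on Uextra and U together 4.09 per Mb in place of 8.69. With regions under 1 kb apart joined, the median score was 23.1 (24.55), the median width 378 bp (456 bp) and the density 7.41 per Mb. The median score thus lay above that of the arms in the top 50% and below it otherwise, with overlapping intervals each time. The top 5% and top 25% of scores took in 3.23% and 27.1% of regions in place of 15.8%, against 5.16% and 24.9% on the arms. The share thus lay above that of the arms at the top 10% and 25% and below it at the top 5%. Intervals overlapped at the top 5% and 25%. A distance of 5 kb gave a next region for 19.0% in place of 14.5%, against 40.1% and 23.1% on the arms. Uextra alone and omission of the lowest 10% of scores moved none of the values tried. Leaving out chromosome 4 or, chosen after seeing the data, the stretch of proximal 2L left the medians of the arms within their intervals. No paired analysis was possible because no column of the file belongs to a single library, and for that reason no replicate was left out. The unknown depth limits what the weakest calls can show.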
